A study of Arabidopsis thaliana with 16 samples.

Results

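The genotype by spaceflight interaction under long days asks whether leaves of the flowering-time transgenic line FG answered spaceflight differently from leaves of wild-type (WT) plants. It is the response of FG to space minus the response of WT to space, each response being the level in space minus the level on the ground. It was taken from the 8 arrays of plants under the long-day condition (LD, 16 h light and 8 h dark), out of 16 arrays in the series, with 2 arrays in each of 4 groups. FG-LD-sp were FG plants in space and FG-LD-gr FG plants on the ground, and WT-LD-sp and WT-LD-gr were the same for Columbia WT plants. FG is an Arabidopsis thaliana line that carries the genes FT and GFP, each behind the promoter of the small heat shock gene HSP17.4, and homozygous plants of the third generation after a cross were used, so that FG is 1 line and WT carries neither transgene. None of the LD plants was given the heat treatment that switches this promoter on, since by the study's methods only the plants under short days (SD, 8 h light) were heated. Plants were grown for 20 days before launch and flew for 12 days and 15 h at 22 ± 2 °C on the SJ-10 satellite, with controls on the ground in a second unit. RNA came from 4 leaves of 2 plants per treatment, and leaves from space were fixed about 2 h after landing.

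FT encodes the mobile protein florigen, which is made in leaf veins under inductive daylength and moves to the shoot apex, where it switches on flowering. Leaves also carry the salicylic acid branch of plant immunity. Salicylic acid is made through ICS1, acts through the receptor NPR1, and raises transcription factors such as WRKY70 and WRKY54 and the secreted pathogenesis-related proteins PR1, PR2 and PR5. It is known in Arabidopsis to act against the jasmonate pathway, the hormone branch for wounding and chewing insects.

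Values are log2 of the MAS5 signal of each probe set on the ATH1 array, as the authors deposited them. For fits and fold changes, signals under 75 (6.229 on the log2 scale) were raised to that floor. Of the probe sets, 14286 were above the floor on both arrays of at least 1 of the 8 groups of the series and were tested with limma, with 1 mean per group over all 16 arrays. Called probe sets are those with a change of 2-fold or more, that is 1 or more on the log2 scale, and a p under 0.05 after Benjamini-Hochberg adjustment. Values after ± are standard errors. A difference is given as a bound where neither array of a group was both called present and over the floor.

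Some RNA measures of the 4 LD groups differed by environment, in both genotypes. Present calls covered 58.0% and 58.7% of probe sets in FG-LD-sp and 52.5% and 57.3% in FG-LD-gr, against 59.9% and 60.3% in WT-LD-sp and 51.7% and 53.6% in WT-LD-gr. The ratio of 3′ to 5′ signal of GAPDH, a measure of intact RNA that is lower when RNA is more complete, lay between 1.53 and 2.21 in FG-LD-sp and between 2.84 and 3.19 in FG-LD-gr, against 1.08 to 1.69 in WT-LD-sp and 2.18 to 3.36 in WT-LD-gr. The same ratio for actin overlapped between space and ground, at 13.2 and 7.85 in FG-LD-sp and 10.7 and 11.7 in FG-LD-gr. In WT it was 12.3 and 8.92 in WT-LD-sp and 12.5 and 11.1 in WT-LD-gr. Replicates were closer in space, with a residual SD of 0.322 in FG-LD-sp and 0.552 in FG-LD-gr, against 0.348 in WT-LD-sp and 0.611 in WT-LD-gr. The study describes the replicates as biological, while the labels do not say which plants each array came from, so p-values measure the spread between these arrays, part of which may be technical. The part of these RNA measures in the interaction was not tested. Being in space cannot be told apart from the flight unit or from the handling at landing.

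The labels were set against the leaf and the transgene. All 5 measured markers of mesophyll and leaf, among them PSAF and PSBO1 of the photosystems and the carbonic anhydrase CA1, were present on every LD array. Their summed log2 signal lay between 67.3 and 67.7 in FG-LD-sp and between 52.5 and 55.3 in FG-LD-gr, against 66.6 to 67.3 in WT-LD-sp and 49.0 to 52.4 in WT-LD-gr. None of 4 trichome markers and 1 of 7 root markers, SCR, which leaves also express, were present on both arrays of a group. Of 8 flower organ genes, PI alone was present, and the others (AG, AP3, SEP1, SEP2, SHP1, SHP2 and STK) were not. PI was present on both arrays of each LD group except WT-LD-sp, where it was present on 1. In leaf RNA, fewer cells of a type and less RNA per cell cannot be told apart.

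FT itself, the gene carried by the transgene, was measured above background only in FG on the ground. Its log2 signal was 6.25 (marginal call) and 3.05 (absent call) in FG-LD-sp and 8.21 and 9.49 (both present) in FG-LD-gr. In WT it was 5.85 and 5.94 in WT-LD-sp and 4.98 and 2.84 in WT-LD-gr, all with absent calls. In these unheated plants both FG ground arrays therefore stood above all 4 WT arrays. Of the FG space arrays, that at 6.25 (marginal call) also did, and that at 3.05 did not. Whether the FT signal in FG came from the transgene or from the plant's own FT gene was not tested. The response of FT to space in FG was at most -2.61 ± 0.65 (adjusted p = 0.0238), a fall, since FG in space had no present call. The difference between FG and WT was at least 2.62 ± 0.65 on the ground (adjusted p = 0.305), and none is given in space, where both genotypes lacked a present call. The interaction of FT was -2.61 ± 0.92 on the log2 scale (adjusted p = 0.682), with both WT groups at the floor. It was -6.18 with no floor and -3.78 as log2(signal + 32). GFP has no probe set among those used.

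**Figure D1:**
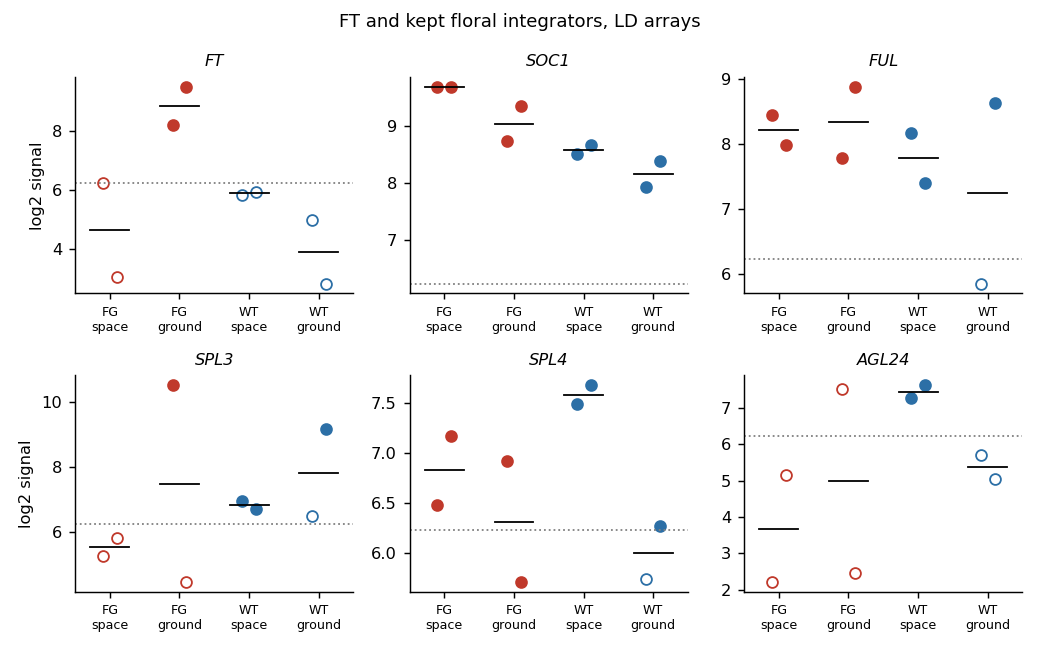
Deposited log2 signal (vertical axes) of FT and the 5 other kept members of the FT family and floral integrator list in the 4 LD groups (horizontal axes). Each point is 1 array, filled where it was called present, bars are means of 2 arrays and the dotted line is the floor of 75. FT is filled in FG on the ground only, at 8.21 and 9.49.

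Other genes of the FT pathway did not pass the interaction test. Of 16 members of the list of FT relatives and floral integrators, 6 were kept, 0 were called, and 2 (FT and AGL24) had an unadjusted p under 0.05, both negative. SOC1, the MADS-box factor that FT activates at the apex, had a log2 signal of 9.67 and 9.68 in FG-LD-sp and 8.72 and 9.35 in FG-LD-gr, against 8.49 and 8.65 in WT-LD-sp and 7.92 and 8.38 in WT-LD-gr. Its FG arrays lay above its WT arrays in each environment, but by limma neither difference between FG and WT was called. The adjusted p was 0.547 in space and 0.453 on the ground. The interaction of SOC1 was 0.21 ± 0.42 (adjusted p = 1). FUL, another MADS-box target of FT, overlapped between all groups, with an interaction of -0.47 ± 1.07. SPL3 and SPL4, transcription factors of the age pathway, had interactions of -1.15 ± 1.82 and -1.07 ± 0.54, and SPL3 ranged from an absent 4.45 to a present 10.51 between the FG-LD-gr arrays. AGL24, a MADS-box partner of SOC1, was called present in WT-LD-sp only, at 7.27 and 7.63. Without a present call, FG-LD-gr entered the fit at a mean of 6.88 (SD 0.921), over the floor. FG-LD-sp and WT-LD-gr entered it at the floor. The interaction of AGL24 was -1.87 ± 0.60 (adjusted p = 0.630), and -3.37 with no floor. These genes act mainly at the apex, and leaves were measured here.

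Many genes were called in the response to space of both genotypes. In FG, 1352 probe sets (9.46%) rose and 642 (4.49%) fell, and in WT 1559 (10.9%) rose and 827 (5.79%) fell. Called in both genotypes were 1241 probe sets in the same direction and 10 in opposite directions, and the correlation of the FG and WT responses was 0.752 across the 14286 probe sets, a description across genes that share arrays. For the interaction, 5 probe sets (0.035%) were called with a higher response in FG and 0 (0%) with a lower one (limma). At 2-fold or more with an unadjusted p under 0.05, 359 (2.51%) were higher and 260 (1.82%) lower. The balance of directions depended on single arrays and on how arrays were scaled. It was 369 higher and 529 lower without FG-LD-gr replicate 2, and 421 and 475 without WT-LD-gr replicate 2. Scaled to the spike-in controls, which moved the median response to 0.68 in FG and 0.87 in WT and the median interaction to -0.20, 213 were higher and 378 lower, and the calls were 3848 higher and 218 lower in FG and 5460 and 239 in WT. Centred on array medians, the calls were 856 higher and 1044 lower in FG and 952 and 1441 in WT. The 95% interval reached a median of 1.11 on the log2 scale to each side, the interval lay wholly within -1 to 1 for 2096 probe sets (14.7%), and 63 intervals lay wholly above 1 and 13 wholly below -1. For the great majority of genes these arrays therefore neither showed a difference of 2-fold between the genotypes' responses nor bounded it below that size.

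**Figure D2:**
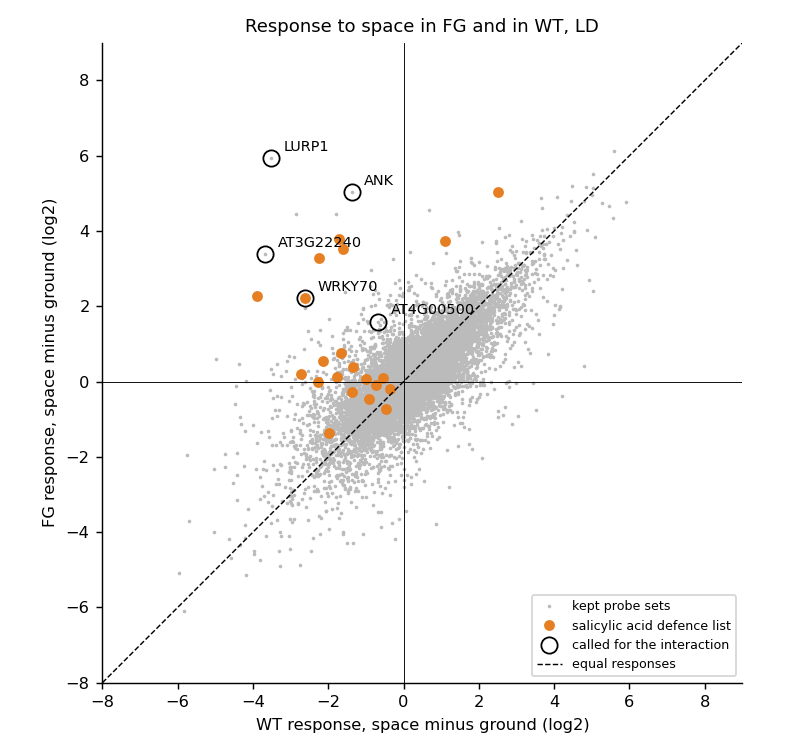
Response to space in FG (vertical axis, log2) against that in WT (horizontal axis, log2) for 14286 probe sets under LD, with the dashed line marking equal responses. Most grey points follow the line, and the 5 called genes (rings) lie above it, with a positive response in FG and a negative one in WT.

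All 5 called genes moved in opposite directions, higher in space in FG and lower in space in WT. LURP1 (AT2G14560), a gene induced late in infection by downy mildew and needed for full resistance to it, had the largest interaction. Its log2 signal was 13.43 and 13.16 in FG-LD-sp and 8.08 and 6.63 in FG-LD-gr, against 9.32 and 10.01 in WT-LD-sp and 13.10 and 13.25 in WT-LD-gr. LURP1 was high in FG in space and in WT on the ground and low in the other groups, and no low array reached a high one. It rose in FG by 5.94 ± 0.60 (adjusted p = 3.74e-04), its response in WT was -3.51 ± 0.60 (adjusted p = 0.00401), and the interaction was 9.45 ± 0.85 (adjusted p = 0.00341), a 699-fold ratio of the fold changes.

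ANK (AT5G54610), an ankyrin-repeat protein of plant immunity, followed the same pattern. Its log2 signal was 11.31 and 11.23 in FG-LD-sp and 4.65 and 5.23, both absent calls, in FG-LD-gr, against 9.10 and 9.01 in WT-LD-sp and 11.27 and 9.59 in WT-LD-gr. In FG on the ground it was below the floor, and the WT ground arrays lay above the WT space arrays. Its response was at least 5.04 ± 0.43 in FG and -1.38 ± 0.43 in WT, and the interaction was at least 6.42 ± 0.60 (adjusted p = 0.00341).

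WRKY70 (AT3G56400), a transcription factor that favours salicylic acid over jasmonate responses, had 12.36 and 12.35 in FG-LD-sp and 10.39 and 9.89 in FG-LD-gr, against 10.11 and 9.59 in WT-LD-sp and 12.02 and 12.92 in WT-LD-gr. Its interaction was 4.83 ± 0.59 (adjusted p = 0.0216), from a response of 2.21 ± 0.42 in FG and -2.62 ± 0.42 in WT, both called. AT3G22240, a small protein of unknown function, had 14.44 and 14.55 in FG-LD-sp and 11.45 and 10.77 in FG-LD-gr, against 10.83 and 11.83 in WT-LD-sp and 14.77 and 15.24 in WT-LD-gr, with an interaction of 7.06 ± 0.89 (adjusted p = 0.0235). AT4G00500, an alpha/beta-hydrolase, had a smaller interaction, 2.28 ± 0.28 (adjusted p = 0.0216), but its replicates were close, at 9.49 and 9.41 in FG-LD-sp and 7.87 and 7.85 in FG-LD-gr, against 8.34 and 8.22 in WT-LD-sp and 9.06 and 8.87 in WT-LD-gr. Its response was 1.59 ± 0.20 in FG and -0.69 ± 0.20 in WT, the latter under 2-fold and so not called. In each of the 5 genes the arrays of FG in space and WT on the ground therefore lay above those of FG on the ground and WT in space. The full order of the 4 groups differed between genes. By mean, WT on the ground was highest in WRKY70 and AT3G22240, and FG in space in LURP1, ANK and AT4G00500.

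**Figure D3:**
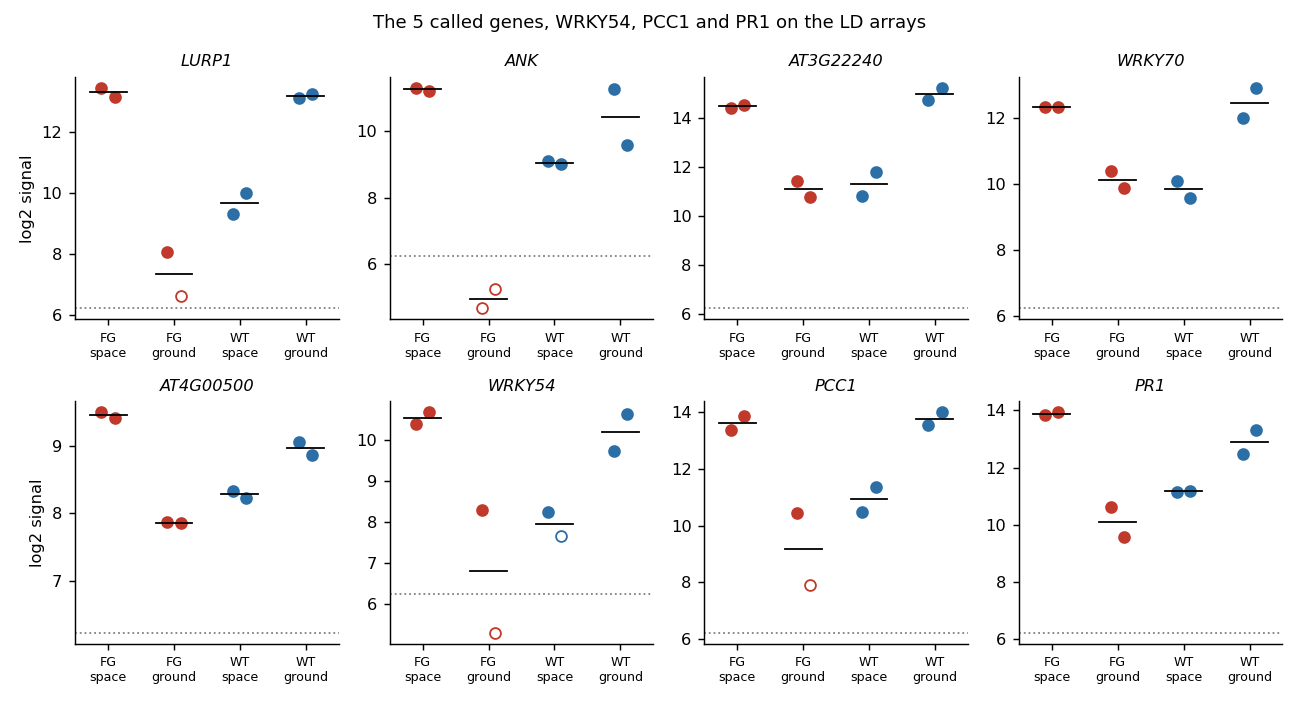
Deposited log2 signal (vertical axes) of the 5 called genes and of WRKY54, PCC1 and PR1 in the 4 LD groups (horizontal axes). Each point is 1 array, filled where called present, bars are means of 2 arrays and the dotted line is the floor of 75. In each panel FG is higher in space than on the ground, and WT is lower in space than on the ground.

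These calls rest on the spread shared by all 16 arrays. Fitted on the 8 LD arrays alone, with 4 residual degrees of freedom, the interaction values were the same and 0 were called (smallest adjusted p = 0.0625, with 970 probe sets at an unadjusted p under 0.05). LURP1 was called without each of the 8 LD arrays in turn and ANK without 7 of them, the exception being WT-LD-sp replicate 2. WRKY70 and AT3G22240 were called only without WT-LD-gr replicate 1, and AT4G00500 only without WT-LD-gr replicate 1 or FG-LD-gr replicate 2, so that leaving out any other LD array ended those calls. With no floor ANK (adjusted p = 0.240) and AT4G00500 (0.0533) were not called, nor was AT4G00500 with spike-in scaling (0.174) or AT3G22240 with environment weights (0.0913). Just outside the threshold stood the receptor-like kinase RK3, the AAA-type ATPase AT3G28510 and the inositol monophosphatase family gene AT5G09290, each with an adjusted p of 0.0526. Their interactions were 3.68 ± 0.52, 3.54 ± 0.51 (at least, WT in space being at the floor) and 3.59 ± 0.52 (at least, for the same reason). In RK3 the FG arrays, 8.39 and 8.45 in space and 8.11 and 8.33 on the ground, hardly moved, and WT had 6.34 and 6.02 in space and 10.05 and 9.47 on the ground.

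Most listed genes of the salicylic acid defence pathway shared this direction. The list was drawn up with earlier results of these data known, so its counts, here and below, are a description and not independent support. All 21 members of that list were kept, 1 (WRKY70) was called, and 9 had a higher response in FG at an unadjusted p under 0.05 and 0 a lower one, where 3.28% and 2.3% of all probe sets did. The interaction was above 0 in 20 of 21 members, against 48.4% of all probe sets, and its median was 2.27 on the log2 scale, against -0.02 over all probe sets. The median response was 0.19 in FG and -1.61 in WT, against 0.07 and 0.09 over all probe sets. In FG, 5 members rose and 0 fell in space, where 9.46% and 4.49% of all probe sets did, and in WT 0 rose and 7 fell, where 10.9% and 5.79% did. The fitted response was above 0 in FG in 14 members, against 53.9% of all probe sets, and below 0 in WT in 19, against 44.6%. In 12 it was above 0 in FG and below 0 in WT, against 10.5% of all probe sets, and in 0 the reverse, against 10.4%.

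Among the transcription factors of the list, WRKY54, a close relative of WRKY70, had 10.39 and 10.68 in FG-LD-sp and 8.30 and 5.29 in FG-LD-gr, against 8.23 and 7.67 in WT-LD-sp and 9.74 and 10.65 in WT-LD-gr. Both its responses were called, 3.27 ± 0.61 in FG and -2.25 ± 0.61 in WT, and its interaction was 5.52 ± 0.86 (adjusted p = 0.0703). SARD1, a transcription factor that switches on ICS1 and has 2 probe sets, had on the one used for the list an interaction of 2.66 ± 0.64 (adjusted p = 0.330), mostly from WT, where it fell by 2.13 in space. The receptor NPR1 fell in WT (-1.01 ± 0.27, adjusted p = 0.0271) and had 0.06 ± 0.27 in FG.

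Among the effectors, PR1 was at 13.84 and 13.93 in FG-LD-sp and 10.61 and 9.58 in FG-LD-gr, against 11.15 and 11.19 in WT-LD-sp and 12.46 and 13.31 in WT-LD-gr. It rose in FG by 3.79 ± 0.90 (adjusted p = 0.0197), had -1.72 ± 0.90 in WT (adjusted p = 0.205), and its interaction was 5.50 ± 1.27 (adjusted p = 0.297). PR5, a thaumatin-like protein, was positive in both genotypes, 5.03 ± 1.22 in FG (adjusted p = 0.0208) and 2.50 ± 1.22 in WT (adjusted p = 0.173). FMO1, which makes the mobile immune signal N-hydroxypipecolic acid, had an interaction of 6.15 ± 1.80 (adjusted p = 0.552), and DLO1, which breaks down salicylic acid, had 5.13 ± 1.43 (adjusted p = 0.497). In both, the 2 FG-LD-gr arrays lay far apart, at 3.54 and 7.05 for FMO1 and at 1.02 and 6.83 for DLO1.

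The upstream signalling genes, like NPR1 and PR5 named after their values were seen, ranged widely and had large errors. EDS1, a lipase-like hub of immune receptor signalling, had an interaction of 0.15 ± 1.17, EDS5, which exports salicylic acid from the chloroplast, 0.47 ± 1.01, and SAG101, a partner of EDS1, -0.26 ± 0.38, the only negative value of the list. PAD4, another partner of EDS1, had 1.74 ± 0.91, PBS3, which acts after ICS1 in salicylic acid synthesis, 1.87 ± 1.94, and ICS1 itself 2.41 ± 1.50 (adjusted p = 0.976), and its 2 WT-LD-sp arrays were at 9.28 and 6.86.

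The same opposite pattern was looked for in every probe set. Called opposite here are probe sets whose 2 space arrays lay above both ground arrays in 1 genotype and below both in the other, with each response at least 1 on the log2 scale. Higher in FG and lower in WT were 29 probe sets (0.203%), and lower in FG and higher in WT were 4 (0.028%). The 29 included LURP1, PCC1, AT3G22240, ANK, the lectin-like gene AT5G03350, FMO1, WRKY54, PR1, DLO1 and WRKY70, the 10 with the largest interactions, and, named after their values were seen, LHT7, an amino acid transporter, and NPR4, a second salicylic acid receptor. PCC1 (AT3G22231), named for its control by pathogens and the circadian clock and known to act on flowering time, had 13.39 and 13.86 in FG-LD-sp and 10.45 and 7.93 in FG-LD-gr, against 10.50 and 11.38 in WT-LD-sp and 13.57 and 13.99 in WT-LD-gr. It rose in FG by 4.44 ± 0.87 and its response in WT was -2.85 ± 0.87, both called, and the interaction was 7.29 ± 1.23 (adjusted p = 0.0982). The 4 in the other direction were the major facilitator family gene AT4G34950, the glutaredoxin AT4G15680, AT5G65470 of the O-fucosyltransferase family and AT2G17660, a RPM1-interacting protein 4-like gene, with interactions between -2.12 and -4.00 on the log2 scale and adjusted p-values of 0.291 or more.

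The pattern can also be read as a difference between the genotypes that changed sign. On the ground 19 of the 21 salicylic acid genes were lower in FG than in WT, against 7094 of all 14286 probe sets. Their median difference was -2.02 on the log2 scale, against 0 over all probe sets. In space 15 of the 21 were higher, against 6683 of all probe sets, with a median of 0.51, against -0.0058. Being lower on the ground and higher in space held together in 13 of the 21 genes, against 22.1% of all probe sets. In LURP1 the difference between FG and WT was 3.63 ± 0.60 in space (adjusted p = 0.114) and -5.82 ± 0.60 on the ground (adjusted p = 0.00892), in ANK 2.22 ± 0.43 (adjusted p = 0.225) and at most -4.20 ± 0.43 (adjusted p = 0.00892). In WRKY70 it was 2.50 ± 0.42 in space (adjusted p = 0.114) and -2.33 ± 0.42 on the ground (adjusted p = 0.145). Over all probe sets, 0 (0%) were called higher and 1 (0.007%) lower in FG than in WT in space, and 0 (0%) higher and 4 (0.028%) lower on the ground. These counts were unstable. On the ground the 8 LD arrays alone gave 3 higher and 0 lower, so that the 4 calls were lost, and 18 higher and 3 lower were called without FG-LD-gr replicate 2, 4 and 18 without WT-LD-gr replicate 1, and 12 and 11 without WT-LD-gr replicate 2. In space 28 higher and 29 lower were called with array weights and 28 and 37 with environment weights, and 0 with only the 8 LD arrays. The 4 lower on the ground were LURP1, ANK and, named after their values were seen, the alpha-galactosidase gene AGAL1 (-2.14, adjusted p = 0.0453) and a lectin probe set that AT2G43730 and AT2G43740 share (-1.39, adjusted p = 0.0453). The 1 in space was a probe set shared by the myrosinase-binding protein genes AT1G52030 and AT1G52040. It had 4.85 and 4.34 (absent calls) in FG-LD-sp and 8.13 and 8.98 in WT-LD-sp, a difference of at most -2.33 (adjusted p = 0.0224). FG-LD-sp entered this difference at the floor, and with no floor 0 probe sets were called in space.

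No gene with a lower response in FG was called in the fit of all 16 arrays, but 9 were without FG-LD-gr replicate 2, against 4 higher, and 5 were with no filter on low signals, against 11 higher. Ahead of all single genes by unadjusted p stood 2 probe sets shared by 2 genes each. The myrosinase-binding protein probe set of AT1G52030 and AT1G52040, with present calls in WT-LD-sp alone, had an interaction of -2.33 ± 0.35 (adjusted p = 0.0622), computed with the other 3 groups at the floor, and that of AT1G13860 and AT2G03480 had -1.62 ± 0.29 (adjusted p = 0.112), both chosen after their values were seen. Among probe sets that name 1 gene, the first was BGLU18, a beta-glucosidase of endoplasmic reticulum bodies that releases abscisic acid from its glucose ester. Its log2 signal was 6.65 and 7.27 in FG-LD-sp and 2.68 and 5.17 in FG-LD-gr, against 9.23 and 10.89 in WT-LD-sp and 4.88 and 4.26 in WT-LD-gr. Both ground groups had absent calls, and the interaction computed on the floor was -3.10 ± 0.59 (adjusted p = 0.156). BT2, a scaffold protein that responds to nitrate and sugar, had 11.69 and 12.04 in FG-LD-sp and 12.02 and 12.47 in FG-LD-gr, against 12.14 and 12.12 in WT-LD-sp and 7.75 and 8.10 in WT-LD-gr. Only WT on the ground was low, and the interaction was -4.59 ± 0.96 (adjusted p = 0.229). DREB1A, the cold-response factor also called CBF3, rose in both genotypes, by at least 2.03 ± 0.32 in FG and at least 4.03 ± 0.32 in WT. Its interaction, computed on the floor, was -2.00 ± 0.46 (adjusted p = 0.291), but -0.07 with no floor and -1.15 as log2(signal + 32). The other 7 of the 10 first single genes, AT4G22490, PRT1, AT5G14470, ASG4, AT2G39130, GIS and AT4G34950, had interactions between -1.03 and -4.00 and adjusted p-values between 0.156 and 0.291. With no floor AT4G22490 had -0.76 and AT5G14470 -2.56.

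Several lists had mostly negative interactions, and none of their members was called. In cell wall expansion 8 of 9 members were below 0 (median -1.19), and in dark and sugar starvation 14 of 15 (median -1.07). So were 13 of 14 in starch degradation, 12 of 13 in the cold list, 9 of 10 in auxin response and 10 of 10 in light harvesting. A negative shift was thus not particular to the jasmonate list, which was among these lists. Of the 21 kept members of the jasmonate list, 18 had an interaction below 0, against 51.3% of all probe sets, with a median of -1.01. At an unadjusted p under 0.05, 3 had a lower response in FG and 0 a higher one, where 2.3% and 3.28% of all probe sets did. The median response was -1.89 in FG and -0.81 in WT, and 6 members fell in FG and 0 in WT, where 4.49% and 5.79% of all probe sets did. Under SD, 15 of the 21 had an interaction below 0, against 53.8% of all probe sets. JAZ8, a repressor of jasmonate signalling that jasmonate induces, had 6.69 and 5.44 in FG-LD-sp and 10.18 and 10.85 in FG-LD-gr, against 7.41 and 5.20 in WT-LD-sp and 8.92 and 7.92 in WT-LD-gr. It fell in FG (-4.05 ± 0.52, adjusted p = 0.00102), had -1.60 ± 0.52 in WT (adjusted p = 0.0525), and its interaction was -2.45 ± 0.73 (adjusted p = 0.565). MYC2, the master transcription factor of the pathway, fell in FG (-1.94 ± 0.38, adjusted p = 0.00860) and had -0.63 ± 0.38 in WT, with an interaction of -1.31 ± 0.54 (adjusted p = 0.812), which was -0.78 without FG-LD-gr replicate 2. CYP94B3, which inactivates jasmonoyl-isoleucine, had an interaction of -4.11 ± 1.57 (adjusted p = 0.762), which was -2.62 without WT-LD-gr replicate 2.

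Outside the salicylic acid list, no list had a called member. The clock genes had a median interaction of 0.13 over 10 morning genes and -0.27 over 10 evening genes, with members between -0.96 (ELF3, a member of the evening complex) and 1.54 (LHY). LHY, a morning MYB factor of the clock, rose in both genotypes, by 4.08 ± 0.44 in FG and 2.54 ± 0.44 in WT, and its interaction was 1.54 ± 0.63 (adjusted p = 0.806), or 0.93 without FG-LD-gr replicate 2. COL1, a relative of the FT activator CO, rose by 3.72 ± 0.31 in FG and 2.46 ± 0.31 in WT, with an interaction of 1.26 ± 0.43 (adjusted p = 0.660), and CO itself was above the floor with a present call in WT-LD-sp alone, on 1 array. Ribosome biogenesis genes had a median response of 2.18 in FG and 2.11 in WT, and heat shock genes -2.21 in FG and -1.87 in WT. Calvin cycle genes had 2.40 in FG and 2.91 in WT (median interaction -0.41), and all 15 chlorophyll synthesis genes had an interaction below 0 (median -0.59), with 0 at an unadjusted p under 0.05. Starch degradation genes had a median interaction of -1.04 and cold genes -0.87, with 0 and 1 members at an unadjusted p under 0.05. In the glucosinolate list 8 members were above 0 and 8 below (median -0.09, from -2.56 to 2.32). MYB28, a regulator of the methionine branch, had an interaction of -1.46 ± 0.39, which was 0.24 with no floor, and the tryptophan branch gene CYP79B3 rose in FG by 1.84 ± 0.36 and had -0.26 ± 0.36 in WT (interaction 2.09 ± 0.51, adjusted p = 0.335).

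**Figure D4:**
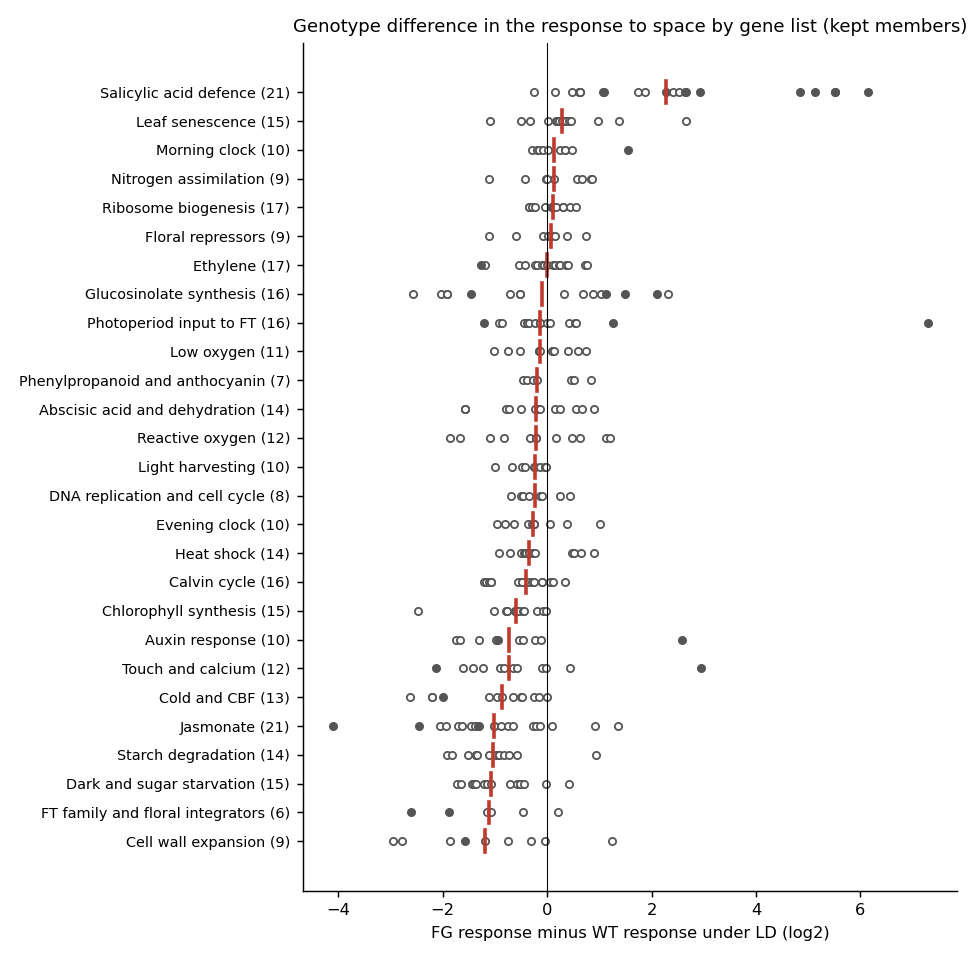
FG response minus WT response under LD (horizontal axis, log2) of each kept member of the 27 gene lists (rows, with the number kept), filled where the unadjusted p was under 0.05, with red bars at list medians. The salicylic acid defence list stands at the top with a median of 2.27, and the other medians lie between -1.19 and 0.29. The lists were chosen with earlier results of these data known.

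Annotation terms in the deposited table were counted over probe sets that name 1 gene, with terms chosen after values had been seen. Annotations inferred by computer were left out. Response to salicylic acid was assigned to 2.89% of 346 probe sets with a higher response in FG (2-fold or more with an unadjusted p under 0.05), 1.61% of 248 with a lower one and 0.734% of all 13618. Over its 100 kept probe sets the median interaction was 0.05, against 2.27 in the salicylic acid defence list, so most genes with this term did not share the size seen in the list. Systemic acquired resistance, the whole-plant immunity that salicylic acid carries, was assigned to 1.16%, 0.403% and 0.154%. Defense response to fungus was about as common in both directions, at 3.47% and 3.23%, against 0.793% of all. Response to jasmonic acid was assigned to 0.867% of the higher, 2.02% of the lower and 0.742% of all, with a median interaction of -0.13, against -1.01 in the jasmonate list.

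The 8 SD arrays gave the same contrast in separate plants that had been heated. Their levels had no part in the LD contrast, but they share its estimate of the spread. FG-SD-sp, FG-SD-gr, WT-SD-sp and WT-SD-gr are the same genotypes and environments under SD. No probe set was called for the SD interaction (smallest adjusted p = 0.152, with 615 at an unadjusted p under 0.05), yet all 5 genes called under LD were positive there too, each with an unadjusted p under 0.05, where 1.89% of all probe sets had that. Each probe set has the same standard error in both contrasts (0.85 for LURP1), so these SD p-values are not independent of the LD calls. LURP1 had a log2 signal of 13.03 and 12.41 in FG-SD-sp and 9.66 and 9.35 in FG-SD-gr, against 10.67 and 11.41 in WT-SD-sp and 10.33 and 12.20 in WT-SD-gr, an interaction of 3.43 ± 0.85 (unadjusted p = 0.00208, adjusted p = 0.836). WRKY70 had 11.50 and 11.42 in FG-SD-sp and 10.79 and 9.53 in FG-SD-gr, against 9.82 and 10.10 in WT-SD-sp and 11.69 and 12.07 in WT-SD-gr, an interaction of 3.22 ± 0.59 (unadjusted p = 2.11e-04, adjusted p = 0.431). Its groups stood in the same order as under LD, and those of LURP1 overlapped between WT in space and on the ground. The SD interaction was 3.08 ± 0.89 in AT3G22240, 1.51 ± 0.60 in ANK and 0.70 ± 0.28 in AT4G00500, the last under 2-fold.

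The 21 salicylic acid genes were listed with earlier results of these data known. Under SD, 19 of them were above 0, where 44.7% of all probe sets were, with a median of 1.58. At an unadjusted p under 0.05, 6 had a higher response in FG and 0 a lower one, where 1.89% and 2.41% of all probe sets did. SARD1 had an SD interaction of 4.02 ± 0.64 (unadjusted p = 6.5e-05), and its difference between LD and SD was -1.35 ± 0.90 (adjusted p = 0.997). Of the 359 probe sets that were higher in FG under LD, 75.2% were positive under SD, against 46.2% of all probe sets with a positive LD value, and of the 260 that were lower, 65.4% were negative, against 55.4%. The difference between the LD and SD interactions was called for 0 of 14286 probe sets (0% in each direction, smallest adjusted p = 0.983, with 487 at an unadjusted p under 0.05). For LURP1 it was 6.02 ± 1.204 (adjusted p = 0.997), so an effect particular to LD was not shown.

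**Figure D5:**
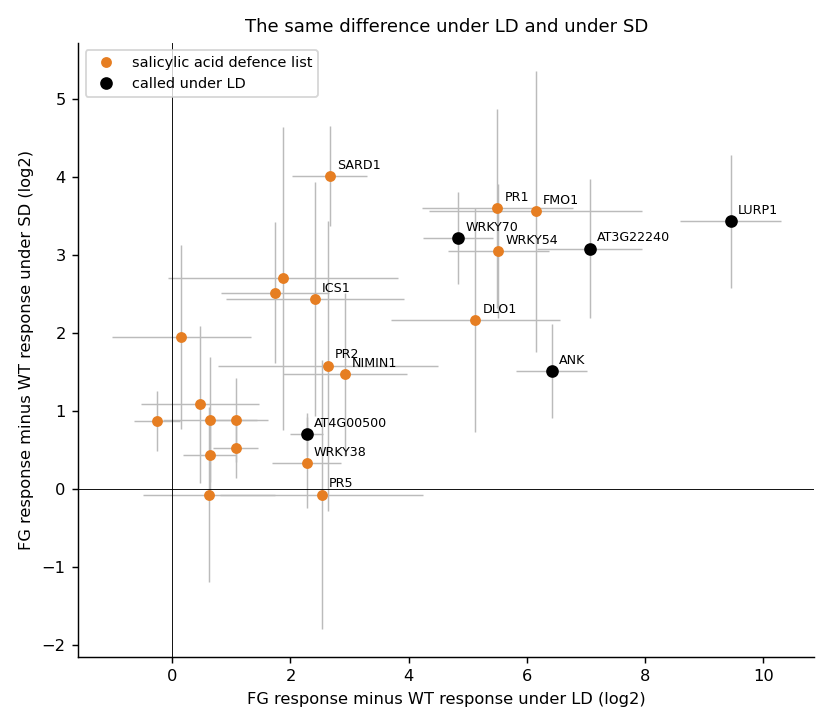
FG response minus WT response under SD (vertical axis, log2) against the same under LD (horizontal axis, log2) for the 21 salicylic acid genes (orange, WRKY70 in black) and the 5 genes called under LD (black), with standard errors as grey bars. All 5 called genes lie above 0 on both axes, and 19 of the 21 list members lie above 0 under SD.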

How the data were processed

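Leaf RNA of 16 samples was hybridised to ATH1 arrays. The authors computed signals and detection calls with MAS5, scaled each array to a trimmed mean of 500, and deposited log2 signals; the alignment of probes to genes is that of the deposited table. All fits used limma 3.58.1 in R 4.3.3 on the 16 arrays, with 8 group means, 8 residual degrees of freedom and Benjamini-Hochberg adjustment over 14286 of 22810 probe sets, 64 control probe sets being left out. Of those kept, 13618 name 1 gene, 603 several and 65 none. The number of arrays limits precision. Alternatives changed the floor, the filter, the scaling, the weights, the arrays fitted and the replicate block, and each LD array was left out in turn. The 27 gene lists and 6 marker lists, and the members described, were chosen with earlier results of these data known. Named genes were FT and its kept relatives, called probe sets, the 10 with the smallest unadjusted p per direction where fewer than 10 were called, up to 4 members per list, and up to 10 per direction that moved oppositely. Others are marked as chosen after their values were seen. Deviations of same-numbered arrays correlated over 0.1 in 14 of 28 pairs of groups, between -0.278 and 0.502, so the numbers were not taken to pair the arrays.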

Additional observations from a re-analysis of the deposited data

Results flagged for a closer look

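In 5 genes the response to space under LD differed between FG and WT by the test of the difference itself (limma, adjusted p under 0.05 and at least 2-fold). The FG response minus the WT response was 9.45 for LURP1, 6.42 or more for ANK, 7.06 for AT3G22240, 4.83 for WRKY70 and 2.28 for AT4G00500, all on the log2 scale. In each, both FG arrays were higher in space than both FG arrays on the ground, and both WT arrays were lower in space than both WT arrays on the ground.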

How the results depend on the processing

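The count of 5 genes called for the interaction became 0 with only the 8 LD arrays, 16 with no filter (11 higher, 5 lower), 13 with a detection filter, 9 with quantile normalization, 8 with a trended and robust variance and 1, not among the 5, with least squares without moderation. With each LD array left out it lay between 1 (without WT-LD-sp replicate 2) and 15 (without WT-LD-gr replicate 1), with 13 without FG-LD-gr replicate 2 (4 higher, 9 lower), 3 without FG-LD-gr replicate 1, and 2 without WT-LD-gr replicate 2 or FG-LD-sp replicate 2. With the replicate block it was 6, the same 5 genes and AT5G09290; deviations of same-numbered LD arrays correlated between -0.203 and 0.281 in 6 pairs of groups, 2 of them over 0.1, so the numbers were not taken as pairs. Calls in the FG response numbered 1167 with no filter, 4066 with spike-in scaling, 404 without moderation and 510 to 2028 with an array left out, and in the WT response 1512, 5699, 686 and 724 to 2442. Between FG and WT in space there were 0 calls with only the LD arrays, no floor, median centring, quantile normalization or no moderation, 9 with no filter, 4 with the detection filter, 2 with spike-in scaling, 57 with array weights, 65 with environment weights, 6 with trend and robust, and 0 to 2 with an array left out. On the ground there were 3, all higher, with only the LD arrays, 8 with no filter, 2 with median centring, array weights or environment weights, 0 with spike-in scaling, 1 without moderation, and 1 to 23 with an array left out. LD minus SD gave 4 with no filter and 0 to 3 with an array left out. Intervals within 2-fold numbered 984 with no floor, 10742 with no filter, 1321 with spike-in scaling and 1060 to 1350 with an array left out, and those wholly outside 115 with only the LD arrays, 121 with no floor and 52 to 144 with an array left out. The FG minus WT difference of FT in space was -1.24 with no floor and -0.47 as log2(signal + 32). The interaction of SOC1 was -0.035 with spike-in scaling and -0.10 to 0.52 with an array left out, that of FUL -1.67 to 0.74 and that of SPL3 -3.29 to 0.99 with an array left out, and that of MYB28 0.24 with no floor. The cause of these changes was not tested. Among the other values for single genes, 1047 kept direction and side of the threshold, 23 became significant and 35 lost significance. Depth is not defined for arrays, and the 2 arrays per group limit what could be called.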
